A study of Homo sapiens with 6 samples.

Results

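Expression of 10 genes at the head of the integrated stress response (ISR) was examined in HK-2, a widely used human cell line of the renal proximal tubule. They were the 4 eIF2 kinases (*EIF2AK1*, *EIF2AK2*, *EIF2AK3*, and *EIF2AK4*), the 3 subunits of their substrate eIF2 (*EIF2S1*, *EIF2S2*, and *EIF2S3*), the phosphatase subunit *PPP1R15B*, and the mitochondrial sensors *OMA1* and *DELE1*. They were taken by gene name from the 29483 genes of the expression table, through the Ensembl identifier of each row. All 6 libraries came from cells kept in 25 mM high glucose (HG) medium for 7 days. The 3 case replicates were then treated for 1 day with 10 μM TEPP-46, an activator of the glycolytic enzyme PKM2, and the 3 control replicates were left without TEPP-46, so that every library shared the HG exposure. Values are FPKM, in which the reads of a gene are divided by its length and by the reads of its library. The depth by which the FPKM were scaled was derived from the values themselves and is not the number of reads sequenced. It was 18634891 (replicate 1), 17924033 (replicate 2), and 17378710 reads (replicate 3) for the control libraries, against 16711934 (replicate 1), 16047243 (replicate 2), and 15363254 (replicate 3) for the case libraries. Read numbers of single genes were recovered from the FPKM in the same way. The study calls the replicates independent and treated them separately. From which step on they were separate cultures is not given in the sources used here, so P-values measure the spread between these samples.

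eIF2 carries the initiator methionyl-tRNA to the ribosome, and its alpha subunit is phosphorylated by 4 kinases that answer different stresses. HRI (*EIF2AK1*) senses low heme and, through *OMA1* and *DELE1*, mitochondrial stress. PKR (*EIF2AK2*) senses double-stranded RNA, PERK (*EIF2AK3*) senses unfolded protein in the endoplasmic reticulum, and GCN2 (*EIF2AK4*) senses uncharged tRNA. Phosphorylated eIF2 blocks its own exchange factor eIF2B, which lowers general translation and favours translation of *ATF4*, and phosphatases with *PPP1R15A* or *PPP1R15B* reverse the mark. The kinases are governed mainly by binding and phosphorylation, which RNA levels do not measure.

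As to the identity of the cells, 16 of 17 tubular epithelium markers were in the table and 7 had a mean of at least 0.5 FPKM (among them *KRT7*, *KRT8*, *KRT18*, *KRT19*, *CDH1*, and *EPCAM*). Their list summed to 1233.79, 1175.98, and 1306.53 FPKM in the control libraries against 1295.94, 964.117, and 1052.55 in the case libraries. *KRT19* was the most abundant by the mean of each group, and *KRT7* was above it in control replicate 3 and case replicate 1. Genes of proximal tubule transport and of its brush border (*LRP2*, *CUBN*, *SLC5A2*, *SLC34A1*, *AQP1*, *ANPEP*, and *GGT1*) were all below that mean. Of the 7 tubular markers tested, 3 had a positive and 4 a negative log2 fold change, with 0 called higher and 1 lower. Of all tested genes, 7.34% were called higher and 5.84% lower. The marker called was *CDH1*, which encodes E-cadherin (log2 fold change -0.64, limma adjusted p = 0.0156). The 4 fibroblast markers found in the table summed to at most 0.454 FPKM in a library and the 5 endothelial markers to at most 0.101. The 4 leukocyte markers found in the table summed to 0.906565, 0.621215, and 0.947917 FPKM in the control libraries against 0.285545, 0.23129, and 0.305834 in the case libraries, nearly all of it *CD14*, with 1 of them at 0 in every library. *CD14* had a log2 fold change of -1.24 (limma adjusted p = 0.0384). The part of these markers in the results that follow was not tested, and in bulk RNA fewer cells of a type and less RNA per cell cannot be told apart.

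The case replicates were less alike than the control replicates. The first principal component of all tested genes (37.2% of the variance) placed the control replicates at -22.9, -27.8, and -23.7 and the case replicates at 30.5, 9.54, and 34.4. On this component case replicate 2 therefore lay nearer to the control group than case replicates 1 and 3 did. On the second component case replicate 1 stood apart at 36.8, with case replicates 2 and 3 at -27.2 and -19.3. The control replicates were at 5.77, -6.33, and 10.2 on it. The SD of log2 values between replicates had a median over genes of 0.09 for control and 0.19 for case. Values of case replicate 2 are followed through the results for this reason.

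Of the 10 members, 1 was called by the test used, and this call was lost under 10 of the 21 alternatives. *EIF2S2*, which encodes the beta subunit of eIF2, rose 1.37-fold (95% interval 1.18 to 1.59), and the other 9 did not pass the test. The 10 genes all had a mean of at least 0.5 FPKM and were tested with the 13599 genes that did, by limma on log2 values scaled between libraries, with adjusted p over all of them. The calls were thus 1 higher and 0 lower, against 13.2% of all tested genes called in either direction, 7.34% higher and 5.84% lower, so the share of members called was near the background. By unadjusted p under 0.05, 2 members were higher and 1 was lower, where 33.1% of all tested genes passed, 16.8% higher and 16.2% lower. By voom on whole reads, 1 was higher and 1 was lower, against 9.57% and 11.1%. The median log2 fold change of the members was 0.01 and that of all tested genes was -0.00. After scaling, the groups did not overlap in 4 members that were higher and 3 that were lower, against 19.5% of all tested genes that were higher without overlap and 20.4% that were lower, 39.9% together.

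**Figure D1:**
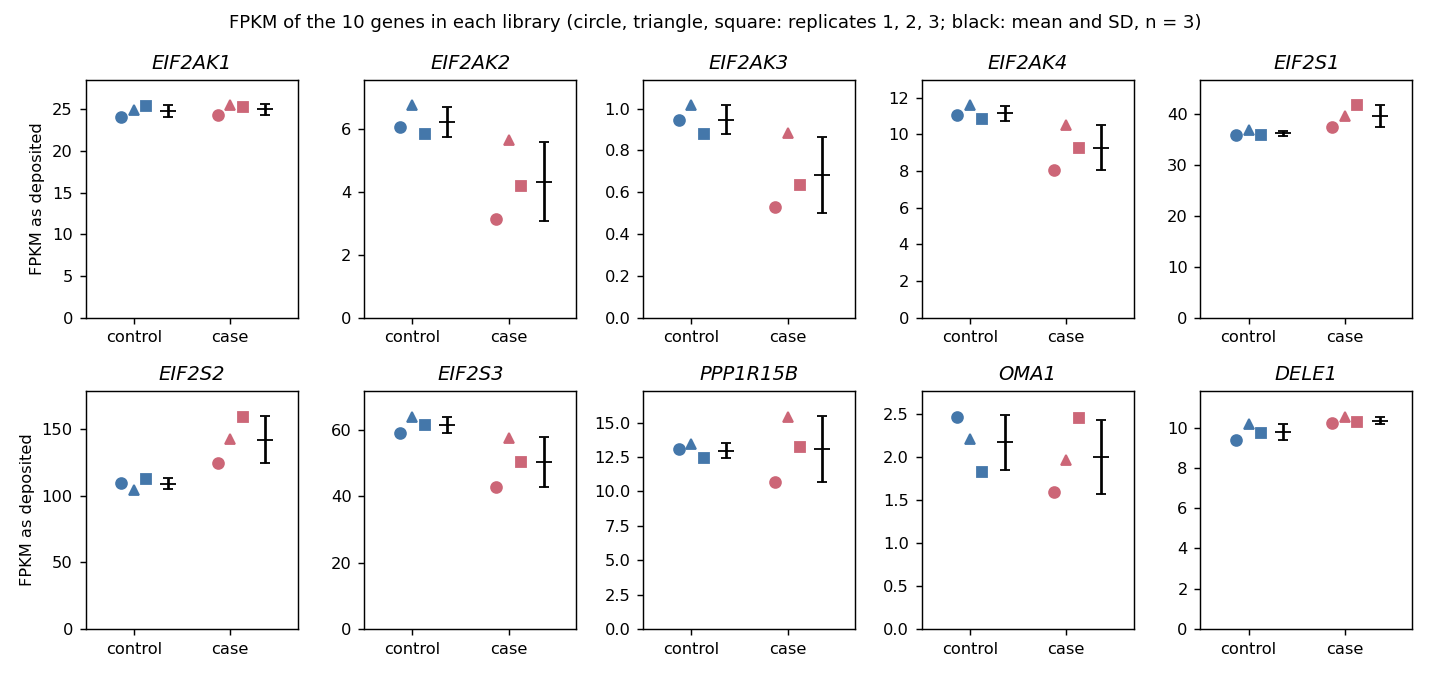
FPKM as deposited (vertical axes, each starting at 0 with its own range) of the 10 genes in the 3 control and 3 case replicates, with the mean and SD of each group (n = 3) in black. *EIF2S2* was above 124 FPKM in every case replicate and below 113 in every control replicate, and in *EIF2AK2*, *EIF2AK3*, *EIF2AK4*, and *EIF2S3* case replicate 2 (triangle) was the case value nearest to the control group.

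Each of the 3 eIF2 subunits had a higher FPKM than any of the 4 kinases, in every library. In the control group *EIF2S2* had the highest mean of the members (108.8 ± 4.24 FPKM, SD, n = 3), followed by *EIF2S3* (61.5 ± 2.49 FPKM, SD, n = 3) and *EIF2S1* (36.2 ± 0.501 FPKM, SD, n = 3). Next were *EIF2AK1* (24.8 ± 0.682 FPKM, SD, n = 3), *PPP1R15B* (12.98 ± 0.532 FPKM, SD, n = 3), *EIF2AK4* (11.1 ± 0.398 FPKM, SD, n = 3), and *DELE1* (9.79 ± 0.396 FPKM, SD, n = 3). The lowest were *EIF2AK2* (6.20 ± 0.481 FPKM, SD, n = 3), *OMA1* (2.17 ± 0.323 FPKM, SD, n = 3), and *EIF2AK3* (0.948 ± 0.0688 FPKM, SD, n = 3). No neighbours in this order overlapped in the control replicates. The order was the same in the case group except that *DELE1* (10.4 ± 0.175 FPKM, SD, n = 3) stood above *EIF2AK4* (9.26 ± 1.23 FPKM, SD, n = 3), and these 2 genes overlapped.

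*EIF2S2* (ENSG00000125977) lies on the minus strand of chromosome 20 of GRCh38 from 34088309 to 34112243. Its FPKM was 109.3, 104.3, and 112.7 in the control libraries against 124.5, 142.2, and 159.2 in the case libraries, on 4966 to 6498 reads. The groups did not overlap, and the 3 case values were spread over a wider range than the control values. The log2 fold change was 0.45 (SE 0.09, limma adjusted p = 0.0230), and relative to the control mean it was 0.32, 0.42, and 0.62 in case replicates 1, 2, and 3. The processed pseudogene *EIF2S2P4*, a copy of its transcript elsewhere in the genome with which reads could be shared, had 23.3, 21.1, and 27.0 FPKM in the control libraries against 23.8, 29.3, and 31.0 in the case libraries. Its groups overlapped and its log2 fold change was 0.31 (SE 0.12, limma adjusted p = 0.115). The call of *EIF2S2* was lost without any one of the control replicates and without case replicate 3, where its log2 fold change was 0.37 (limma adjusted p = 0.0674). Without control replicates 1, 2, and 3 its log2 fold change was 0.46, 0.42, and 0.48. Of all tested genes, 76, 55, and 68 were called higher in those fits and 121 without case replicate 3, against 998 in the fit used. The call of *EIF2S2* was kept without case replicate 1 and without case replicate 2. The call was also lost with no filter on low values, with TPM, with quantile normalization, and without the intensity trend. It was lost as well under the correction for gene length, where the value was 0.34 (limma adjusted p = 0.0521). The log2 fold change was positive under all 21 alternatives, from 0.25 to 0.52.

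*EIF2S1* (ENSG00000134001) encodes the alpha subunit that the kinases phosphorylate, and lies on the plus strand of chromosome 14 from 67360328 to 67386516. It had 35.9, 36.8, and 36.0 FPKM in the control libraries against 37.5, 39.7, and 41.8 in the case libraries, on 3531 to 3781 reads. Every case value was above every control value, by a small margin. Its log2 fold change was 0.21 (SE 0.07, 95% interval 0.04 to 0.37, limma adjusted p = 0.0903). With a correction for GC content it was called higher (0.29, limma adjusted p = 0.0344), where 14.3% of all tested genes were, and with the correction for gene length (0.27, limma adjusted p = 0.0452), where 7.04% were, both corrections being added after the data had been seen. It was not called with length correction and the replicate block together (limma adjusted p = 0.0843), with TPM (0.0063, limma adjusted p = 0.960), with quantile normalization (0.09, limma adjusted p = 0.427), or with FPKM unscaled (0.13, limma adjusted p = 0.235).

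*EIF2S3* (ENSG00000130741) encodes the gamma subunit, which holds GTP and the tRNA, and lies on the plus strand of chromosome X from 24054946 to 24078810. Its FPKM was 59.1, 64.1, and 61.4 in the control libraries against 42.8, 57.7, and 50.5 in the case libraries, on 2486 to 3988 reads. The case values were all below the control values, with case replicate 2 close to them. The log2 fold change was -0.22 (SE 0.10, 95% interval -0.44 to 0.00, limma adjusted p = 0.153). Relative to the control mean it was -0.39, -0.06, and -0.21 in case replicates 1, 2, and 3. Without case replicate 2, *EIF2S3* was called lower (-0.30, limma adjusted p = 0.0369), where 12.4% of all tested genes were, and without case replicate 1 it was at -0.13 (limma adjusted p = 0.233). With TPM it was called lower (-0.42, limma adjusted p = 0.0432), where 17.6% of all tested genes were and their median was itself at -0.19. The similar gene *EIF2S3B* had 1.57, 2.03, and 1.496 FPKM in the control libraries against 1.23, 1.16, and 1.10 in the case libraries (log2 fold change -0.43, limma adjusted p = 0.121).

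The proportions of the subunits were compared within each library, since a ratio of 2 genes in a library does not depend on the scaling between libraries. The FPKM of *EIF2S2* was 1.85, 1.63, and 1.84 times that of *EIF2S3* in the control libraries against 2.91, 2.46, and 3.15 times in the case libraries. The FPKM of *EIF2S3* was 1.65, 1.74, and 1.71 times that of *EIF2S1* in the control libraries against 1.14, 1.45, and 1.21 times in the case libraries. Neither ratio overlapped between the groups, case replicate 2 included. How often ratios of other genes do not overlap was not computed. On the log2 scale and against the mean of the 3 subunits, *EIF2S2* was higher by 0.31 in the case group and *EIF2S3* differed by -0.37 (exact permutation test, two-sided, p = 0.1 for each, adjusted p = 0.18 over the 9 ratios computed). For *EIF2S1* the difference was 0.06 (exact permutation test, p = 0.3), from 0.019 to 0.095 with each replicate left out in turn. With 3 replicates against 3, a p of 0.1 is the smallest this test allows, so no ratio could pass the threshold.

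Among the kinases, 0 of 4 passed the test by limma, with 0 higher and 1 lower by voom as at an unadjusted p under 0.05, and 3 of the 4 had a negative log2 fold change. Of all tested genes, 11.1% were lower by voom, 16.2% were lower at that unadjusted p, and 6830 of 13599 had a negative log2 fold change. *EIF2AK1* (ENSG00000086232, minus strand of chromosome 7, 6022247 to 6059175) had 24.1, 24.9, and 25.5 FPKM in the control libraries against 24.3, 25.5, and 25.3 in the case libraries, on 2154 to 2492 reads. As deposited these values overlapped, and the log2 fold change was 0.09 (SE 0.07, 95% interval -0.07 to 0.25, limma adjusted p = 0.411). After scaling, every case value of *EIF2AK1* was above every control value, and as a fold the interval ran from 0.951 to 1.19. It shares 532 exon bases with *AIMP2* on the opposite strand (mean 28.7 FPKM), and the strandedness of the libraries is not given in the sources used here, so reads of these genes could be mixed.

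*EIF2AK2* (ENSG00000055332, minus strand of chromosome 2, 37099210 to 37157522) had the lowest log2 fold change of the members. Its FPKM was 6.04, 6.74, and 5.82 in the control libraries against 3.12, 5.62, and 4.17 in the case libraries, on 561 to 1299 reads. The groups did not overlap, and case replicate 2 lay just under the control values. The log2 fold change was -0.48 (SE 0.18, 95% interval -0.88 to -0.07, limma adjusted p = 0.104), and relative to the control mean it was -0.84, -0.11, and -0.49 in case replicates 1, 2, and 3. It was called lower by voom on whole reads (adjusted p = 0.0360), which called 11.1% of all tested genes lower. Without case replicate 2 it was called lower by limma as well (-0.66, adjusted p = 0.0166), where 12.4% of all tested genes were, and without case replicate 1 it was at -0.29 (limma adjusted p = 0.168).

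*EIF2AK3* (ENSG00000172071, minus strand of chromosome 2, 88556741 to 88691518) was the kinase with the least RNA. It had 0.948, 1.02, and 0.879 FPKM in the control libraries against 0.529, 0.883, and 0.635 in the case libraries, on 48 to 99 reads. It shares 781 exon bases with a long noncoding RNA gene on the opposite strand, which the expression table lacks. Case replicate 2 fell within the control range, and the other case values were below it. The log2 fold change was -0.38 with a standard error of 0.23 (95% interval -0.90 to 0.15, limma adjusted p = 0.282), the widest interval of the members. *EIF2AK4* (ENSG00000128829, plus strand of chromosome 15, 39934115 to 40035591) had 11.04, 11.6, and 10.8 FPKM in the control libraries against 8.05, 10.5, and 9.23 in the case libraries, on 1609 to 2484 reads. The case values were all below the control values, and the log2 fold change was -0.20 (SE 0.10, 95% interval -0.42 to 0.02, limma adjusted p = 0.192). Without case replicate 1 it was -0.12.

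**Figure D2:**
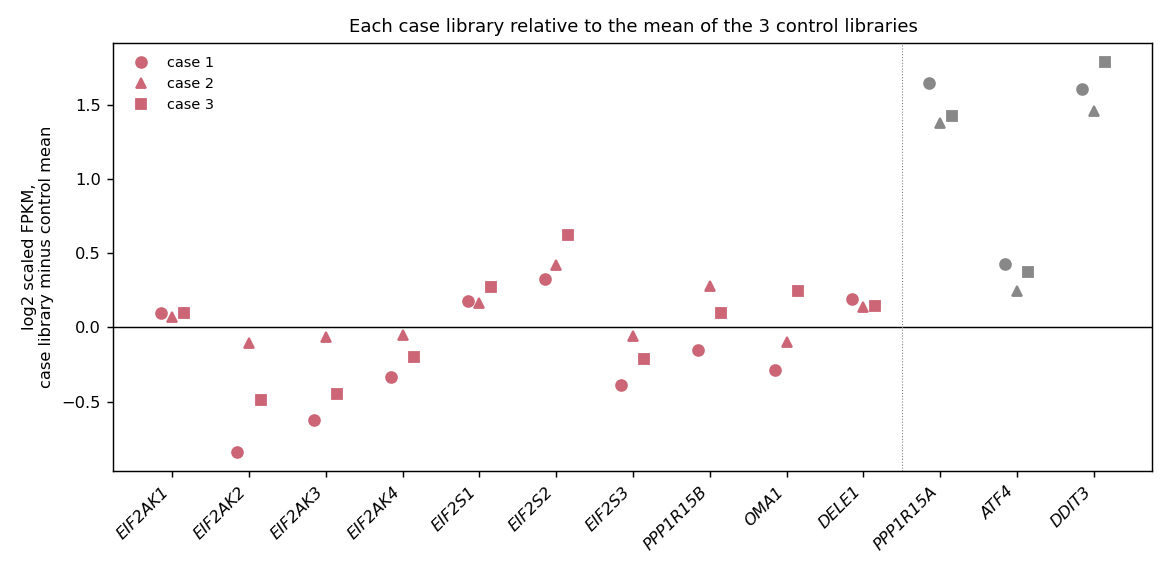
Log2 scaled FPKM of each case replicate minus the mean of the 3 control replicates (vertical axis) for the 10 genes and, right of the dotted line, for *PPP1R15A*, *ATF4*, and *DDIT3*. In *EIF2AK2*, *EIF2AK3*, *EIF2AK4*, and *EIF2S3* the order of the replicates was the same, with case replicate 1 lowest and case replicate 2 nearest to 0, while *PPP1R15A* was between 1.38 and 1.65 in all of them.

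The kinases were likewise compared within each library. *EIF2AK1* held 57.2%, 56.3%, and 59.2% of the summed FPKM of the 4 kinases in the control libraries against 67.5%, 59.97%, and 64.3% in the case libraries. *EIF2AK2* held 14.3%, 15.2%, and 13.5% in the control libraries against 8.68%, 13.2%, and 10.6% in the case libraries. *EIF2AK4* held 26.2%, 26.2%, and 25.2% in the control libraries against 22.4%, 24.7%, and 23.5% in the case libraries. The groups did not overlap in any of these shares, with *EIF2AK1* higher and *EIF2AK2* and *EIF2AK4* lower in the case group. The shares of a library depend on each other, and the mean FPKM of *EIF2AK1* itself was 24.8 in control and 25.0 in case. Ratios within a library also keep any difference that goes with gene length. *EIF2AK2* (10753 bases) and *EIF2AK4* (11957 bases) are longer than *EIF2AK1* (5550 bases). How often such shares do not overlap for other genes was not computed. *EIF2AK3* held 2.25%, 2.30%, and 2.05% in the control libraries against 1.47%, 2.08%, and 1.62% in the case libraries. For this kinase the groups overlapped. Against the mean log2 of the 4 kinases, *EIF2AK1* was higher by 0.34 in the case group and *EIF2AK2* differed by -0.23 (exact permutation test, two-sided, p = 0.1 for each, adjusted p = 0.18). Without case replicate 1 the difference of *EIF2AK2* was -0.14. The differences were -0.17 for *EIF2AK3* (exact permutation test, p = 0.2) and 0.06 for *EIF2AK4* (exact permutation test, p = 0.3), the latter running from 0.031 to 0.095 with each replicate left out in turn. The median log2 difference of the 4 kinases from the control mean was -0.48, -0.06, and -0.32 in case replicates 1, 2, and 3.

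The length of a gene moved with its difference between the groups. Among all tested genes, the median log2 fold change was 0.16 in the quintile of genes with the shortest counted length (12 to 1975 bases) and -0.21 in that with the longest (7480 to 44058 bases). In the longest quintile it was -0.32, -0.08, and -0.22 in case replicates 1, 2, and 3. *EIF2AK4* (11957 bases) and *EIF2AK2* (10753 bases) belong to this quintile, and *EIF2S2* (2656 bases) to the second shortest. With the trend on length removed from each library, the log2 fold change of *EIF2AK4* was 0.09 and that of *EIF2AK2* was -0.23, while *EIF2S3* (3472 bases) was at -0.28. The signs of *EIF2AK2*, *EIF2AK3*, and *EIF2S3* were thus negative with and without this correction, and that of *EIF2AK4* was not. By GC content, the median of the lowest quintile was -0.26, 0.04, and 0.01 in case replicates 1, 2, and 3. That of the highest quintile was 0.16, -0.13, and -0.08. *EIF2AK2* (39.2% GC) belongs to the lowest quintile and *EIF2S3* (41.0% GC) to the second lowest. With the trend on GC content removed, they were at -0.41 and -0.19 (limma adjusted p = 0.0542 and 0.0527).

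*EIF2AK2* is known as a gene that interferon induces, so other interferon-stimulated genes were read beside it. Of 12 listed, 9 were tested, 0 were called higher and 1 was called lower by limma, as by voom, with 2 higher and 1 lower at an unadjusted p under 0.05. Of all tested genes, 5.84% were called lower by limma and 11.1% by voom, and 16.8% were higher and 16.2% lower at an unadjusted p under 0.05, so these counts are near the background. The gene called was *OAS3*, which encodes a synthase of the 2-5A messenger that activates RNase L (log2 fold change -0.53, SE 0.12, limma adjusted p = 0.0294). Its counted length of 8251 bases is in the longest quintile of genes. The median of the 9 was -0.08. The RefSeq promoter of *EIF2AK2* was searched for the interferon-stimulated response element, and the stretch that holds it is shown because this element is known from genes that interferon induces. The letters searched, on both strands, were GAAA and a second GAAA with 2 free bases between them, which 3.57% of 35116 RefSeq promoters of the same length hold and 1 of the 8 members with a promoter in that table. The capitals mark the match, which runs from base -6 to base 4 around the RefSeq start, within chr2:37156967-37156996 of GRCh38.p14, minus strand.
EIF2AK2: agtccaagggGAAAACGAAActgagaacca

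*PPP1R15B* (ENSG00000158615, minus strand of chromosome 1, 204396492 to 204411887) encodes CReP, the subunit that directs protein phosphatase 1 to eIF2 at all times, whereas its relative *PPP1R15A* (GADD34) is induced by stress. *PPP1R15B* had 13.1, 13.5, and 12.4 FPKM in the control libraries against 10.7, 15.5, and 13.2 in the case libraries, on 931 to 1296 reads. It shares 523 exon bases with a long noncoding RNA gene on the opposite strand, which the expression table lacks. The case values lay on both sides of the control values, and the log2 fold change was 0.07 (SE 0.12, 95% interval -0.19 to 0.34, limma adjusted p = 0.692). *PPP1R15A* had 30.8, 30.3, and 30.8 FPKM in the control libraries against 87.8, 78.1, and 78.4 in the case libraries. The FPKM of the inducible gene was therefore 2.35, 2.25, and 2.48 times that of the constitutive one in the control libraries against 8.24, 5.05, and 5.94 times in the case libraries. The log2 ratio was higher by 1.41 in the case group (exact permutation test, two-sided, p = 0.1, adjusted p = 0.18), and the groups did not overlap.

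The promoter of *PPP1R15B* was searched for the C/EBP-ATF response element, to which *ATF4* binds with its partners, and the stretch is shown because *ATF4* targets are among the lists read here. The letters TGATGNAA were searched on both strands, and 3.62% of all promoters in the table and 1 of the 8 members hold them. The match, in capitals, lies from base -227 to base -220, within chr1:204412026-204412055 of GRCh38.p14, minus strand. The endoplasmic reticulum stress element (CCAAT and CCACG with 9 free bases between them, both strands) was found in 0.0769% of all promoters and in 0 of the 8. The 2 elements found lie in different promoters and do not overlap. A match is a run of letters, and no binding was measured.
PPP1R15B: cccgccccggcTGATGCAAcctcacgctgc

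The mitochondrial sensors did not pass the test. *OMA1* (ENSG00000162600, minus strand of chromosome 1, 58415384 to 58546802) encodes the protease of the inner membrane that cuts DELE1 under stress. It had 2.47, 2.21, and 1.83 FPKM in the control libraries against 1.59, 1.96, and 2.45 in the case libraries, on 99 to 171 reads, and it shares 257 exon bases with *DAB1* on the same strand. The groups overlapped across nearly their whole range, and the log2 fold change was -0.05 (SE 0.18, 95% interval -0.46 to 0.36, limma adjusted p = 0.880). *DELE1* (ENSG00000081791, plus strand of chromosome 5, 141923855 to 141942047) encodes the messenger that binds HRI in the cytosol. Its FPKM was 9.42, 10.2, and 9.74 in the control libraries against 10.2, 10.6, and 10.3 in the case libraries, on 957 to 1106 reads. Every case value was above every control value, the nearest pair by less than 0.1 FPKM, and the log2 fold change was 0.16 (SE 0.08, 95% interval -0.02 to 0.34, limma adjusted p = 0.193). The log2 ratio of *OMA1* to *DELE1* differed by -0.21 between the groups (exact permutation test, p = 0.4), and ran from -0.37 to -0.065 with each replicate left out in turn.

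Other genes of the pathway were read from 4 lists with 44 genes in all, each of which was tested. Of these, 5 were called higher and 1 lower by limma, against 7.34% and 5.84% of all tested genes, and the other 38 had log2 fold changes from -0.41 to 0.28. With each replicate left out in turn, 1 to 8 were called higher and 0 to 2 lower. Of all tested genes, 55 to 1813 were then called higher and 14 to 1682 lower. The median of all 44 was 0.09. In the eIF2 cycle, 3 of 17 genes rose and 0 fell by limma, as by voom, with 6 higher and 0 lower at an unadjusted p under 0.05. Of all tested genes, 9.57% were higher by voom and 16.8% at that unadjusted p. *EIF2B3*, the gamma subunit of the exchange factor eIF2B, had 5.07, 5.05, and 6.07 FPKM in the control libraries against 7.61, 7.86, and 8.78 in the case libraries (log2 fold change 0.65, SE 0.11, limma adjusted p = 0.0143). It was the 1 gene called among the 5 subunits of eIF2B. *EIF1*, which guards the choice of the start codon, had 210.9, 220.8, and 204.8 FPKM in the control libraries against 281.1, 281.0, and 316.3 in the case libraries (0.54, SE 0.08, limma adjusted p = 0.0128). *EIF2D*, which can bring tRNA to the ribosome without eIF2, had a smaller difference (0.28, SE 0.07, limma adjusted p = 0.0481).

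Among the 4 genes of the phosphatase, *PPP1R15A* rose (log2 fold change 1.48, SE 0.09, limma adjusted p = 0.00152), and the catalytic subunits *PPP1CA*, *PPP1CB*, and *PPP1CC* were not called, with values from -0.06 to 0.23. Of 10 regulators of the kinases, *GCN1* fell and 0 rose by limma, with 1 higher and 3 lower at an unadjusted p under 0.05 and 0 higher and 3 lower by voom. Of all tested genes, 5.84% were lower by limma, 16.2% at that unadjusted p, and 11.1% by voom. *GCN1*, which activates GCN2 on stalled ribosomes, had 39.5, 40.0, and 37.1 FPKM in the control libraries against 27.6, 28.8, and 22.9 in the case libraries (-0.48, SE 0.10, limma adjusted p = 0.0252). Its counted length of 9654 bases places it in the longest quintile of genes. It was not called with the correction for length. Under that correction 0 of the 44 pathway genes were called lower, against 573 of the 13599 tested genes. The part of length in the lost call was not tested. Of 13 genes of the mitochondrial relay, 1 rose by limma, as by voom, and 3 were higher at an unadjusted p under 0.05, against 7.34%, 9.57%, and 16.8% of all tested genes. The gene that rose was *PARL*, a rhomboid protease of the inner membrane, with 27.1, 29.7, and 30.4 FPKM in the control libraries against 34.7, 34.5, and 40.6 in the case libraries (0.41, SE 0.09, limma adjusted p = 0.0310).

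Of 21 listed ISR targets, 15 rose and 0 fell by limma, and all 21 had a positive log2 fold change. By voom, as at an unadjusted p under 0.05, 16 were higher and 0 lower. The list was chosen with earlier results of these data known, so its counts are a description. Phosphorylation of eIF2 was not measured. Of all tested genes, 7.34% were called higher by limma, 9.57% were higher by voom, 16.8% were higher at that unadjusted p, and 6769 of 13599 had a positive log2 fold change. The median of the list was 0.50 and that of all tested genes was -0.00. *ATF4*, whose translation phosphorylated eIF2 favours, had 307.1, 294.4, and 297.0 FPKM in the control libraries against 367.4, 347.3, and 368.8 in the case libraries (log2 fold change 0.35, limma adjusted p = 0.0296). *DDIT3*, which encodes CHOP, had the largest value of the list (1.62), followed by *TRIB3* (1.03), *SLC3A2* (0.83), and *ASNS*, the asparagine synthetase (0.82). The other 10 that rose were *ATF3*, *CHAC1*, *SESN2*, *PSAT1*, *PHGDH*, *CEBPG*, *STC2*, *VLDLR*, *MTHFD2*, and *SLC7A5*, with values from 0.43 to 0.75. The median of the list relative to the control mean was 0.67, 0.53, and 0.57 in case replicates 1, 2, and 3. It was lowest in case replicate 2, in which the kinases and *EIF2S3* were near their control values. Whether the RNA of the kinases or of *EIF2S3* has a part in the level of the list was not tested. The 6 targets not called (*ATF5*, *SLC7A11*, *DDIT4*, *CEBPB*, *NUPR1*, and *XPOT*) had values from 0.04 to 0.42. The number called was between 6 and 9 without any one of the control replicates and 8 without case replicate 3. Of all tested genes, 76, 55, and 68 were called higher without control replicates 1, 2, and 3, and 121 without case replicate 3. In the fit used they numbered 998.

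**Figure D3:**
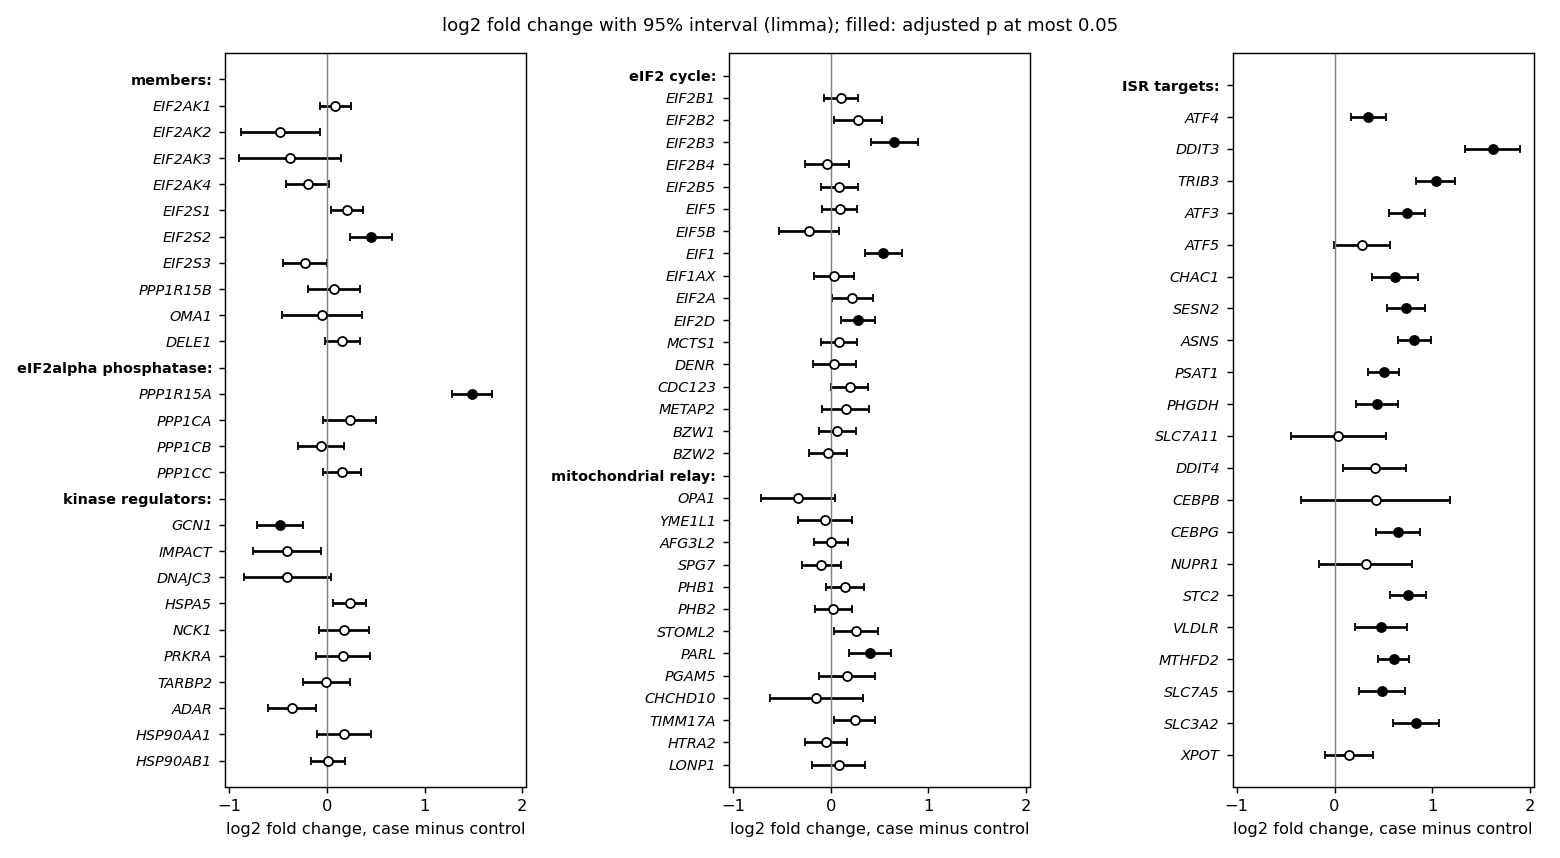
Log2 fold change, case minus control, with its 95% interval by limma (horizontal axis) for the members, the 4 lists of pathway genes, and the ISR targets, with filled points for an adjusted p of at most 0.05. *EIF2S2* is the filled point among the members, and 15 of the 21 ISR targets are filled.

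The genes whose profile over the 6 libraries was most like that of a member were taken for the members with the highest and the lowest log2 fold change, among 6646 genes with a mean of at least 5 FPKM. For *EIF2S2* they were *TMED2* (Pearson r = 0.996), *GNL2* (0.996), and *ACOT9* (0.995), and 229 genes had an r over 0.95. For *EIF2AK2* they were *EIF2AK4* (0.999), *ATP6V1A* (0.996), and *COA7* (0.996), and 283 genes had an r over 0.95. These are descriptions over 6 libraries that share their group difference, and r takes no account of the size of a change: the log2 fold change of *EIF2AK4* was -0.20 and that of *EIF2AK2* was -0.48.

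**Figure D4:**
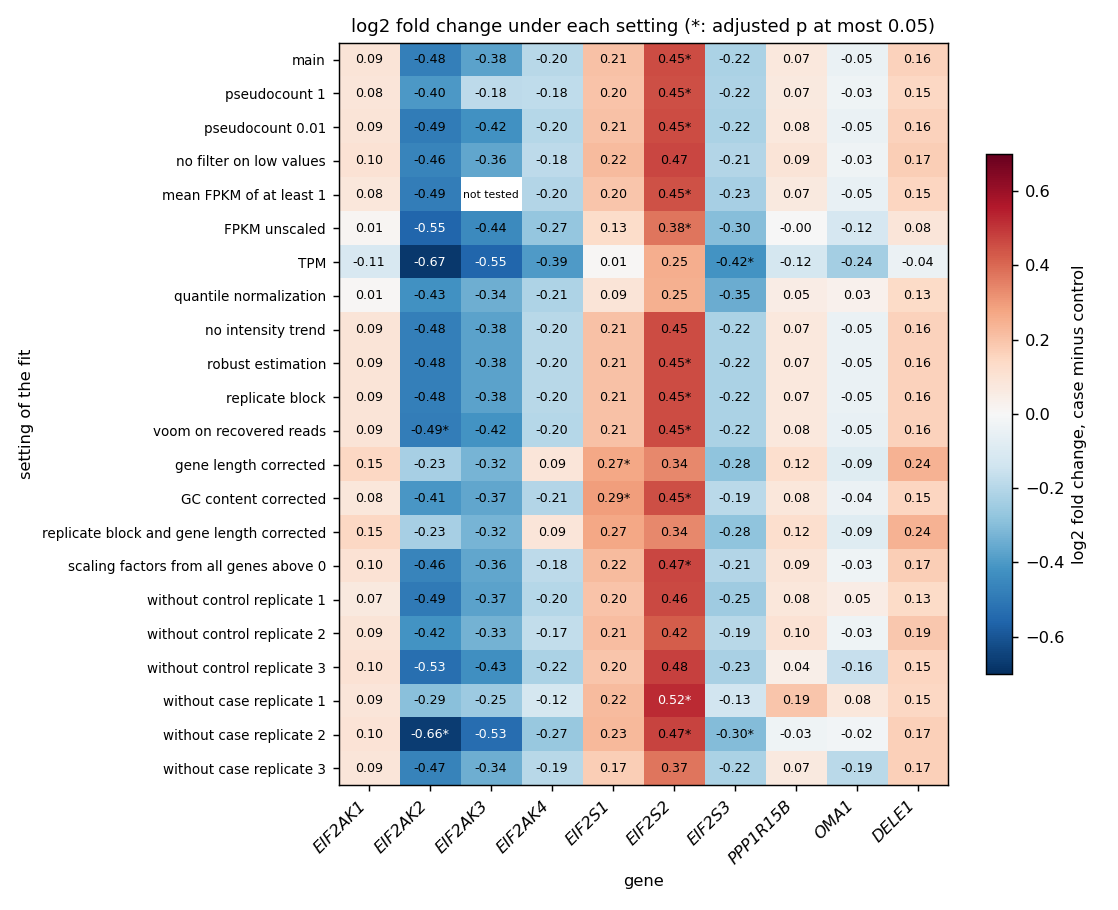
Log2 fold change, case minus control, of each of the 10 genes (columns) under the setting used and each alternative (rows), with the value printed and an asterisk for an adjusted p of at most 0.05. *EIF2S2* was positive in all 21 alternatives, from 0.25 to 0.52, and *EIF2AK2* was negative in all of them, from -0.67 to -0.23.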

How the data were processed

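The authors filtered the reads, aligned them to GRCh38.p13 with HISAT2 2.1.0, counted them on genes with HTSeq 0.6.0, and deposited FPKM values of 29483 genes in 6 libraries. The selection of RNA, the strandedness, and the annotation version are not given in the sources used here. An annotation of GRCh38 gave symbols and positions for 29063 genes by Ensembl identifier, and promoters from RefSeq (GRCh38.p14) for 8 of the 10 members.

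For each library a median-of-ratios factor (0.944 to 1.04) scaled the FPKM values, and log2(scaled value + 0.1) was analysed. The 13599 genes averaging 0.5 FPKM or more were tested in R 4.3.3 by limma 3.58.1 (intensity trend, no covariates), with Benjamini-Hochberg adjustment over all of them and a threshold of 0.05. Fold changes are on this scale and understate those of low genes. The factors were first computed on all genes above 0 in every library (1056 genes higher, 741 lower) and then on the tested genes (998 higher, 794 lower). The second was kept after both had been seen, because it matches earlier processing of these data.

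Whole reads were recovered from the steps between FPKM values, for 25571 genes from the values alone and for 2351 with the exon length. Of 1576 short genes, 97.4% had a length within 0.02 of a whole number. A weight in this step was settled after the sums had been compared with the depth and with read counts listed by the authors. Those counts are not used here otherwise. The weight does not enter the main fit on FPKM. It can move the read numbers and counted lengths of single genes, and with them the results by voom and under length correction. On these reads limma voom called 1302 genes higher and 1512 lower. No molecular identifiers were used, so reads are not independent molecules and read numbers cover counting error only.

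All 10 members are named, with the called genes of each list, and for the highest and lowest member the 3 most similar genes. The members and lists were chosen with earlier results of these data known. The alternatives were other pseudocounts, filters, scalings, and fits, each replicate left out, and corrections for gene length and GC content, the corrections and the factors from all genes being added after the data had been seen.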

Additional observations from a re-analysis of the deposited data

How the results depend on the processing

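With *EIF2S2* as the member called higher, the number of members called higher was 0 with no filter on low values, with TPM, with quantile normalization, with no intensity trend, and under the block combined with length correction, and 2 with GC correction. It was 1 with length correction alone, where the member called was *EIF2S1* (adjusted p = 0.0452 by limma) and *EIF2S2* was not called (adjusted p = 0.0521). The number of members called lower was 1 with TPM (*EIF2S3*) and 1 with voom (*EIF2AK2*). Leaving out replicates in turn gave 0 to 1 members higher and 0 to 2 lower, 55 to 1813 of all genes higher and 14 to 1682 lower, 1 to 8 pathway genes higher and 0 to 2 lower, and 6 to 15 ISR targets higher.

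Of all genes, those called higher and lower numbered 347 and 177 with no filter, 383 and 2387 with TPM, 436 and 416 with no intensity trend, 1949 and 1344 with GC correction, and 611 and 366 with the replicate block and length correction. They numbered 662 and 1124 with FPKM unscaled, 1302 and 1512 with voom, and 957 and 573 with length correction alone. Unscaled FPKM moved the median log2 fold change of all genes to -0.08 and TPM moved it to -0.19. Pathway genes called higher and lower numbered 3 and 0 with no filter or no intensity trend, 3 and 2 with FPKM unscaled, 3 and 4 with TPM, 2 and 3 with quantile normalization, and 12 and 3 with GC correction. Those called lower numbered 2 with a mean of at least 1 FPKM or the replicate block, 3 with voom, and 0 with length correction, alone or with the block.

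The sign turned for *EIF2AK1* (-0.11), *PPP1R15B* (-0.12), and *DELE1* (-0.039) with TPM, for *PPP1R15B* with FPKM unscaled (-0.0018), for *OMA1* with quantile normalization (0.032), and for *EIF2AK4* with length correction, alone or with the block (0.086). None of these was called in either fit. Leaving out a replicate gave *OMA1* -0.19 to 0.078 and *PPP1R15B* -0.028 to 0.19. The cause of these shifts was not tested.

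The replicate numbers are shared between the groups. The deviations of same-numbered replicates from their group means had correlations of 0.06, 0.10, and -0.05, so the numbers were not taken to pair the samples. With the replicate block, 848 genes were higher and 762 lower, with 1 member higher. *EIF2AK3* (48 to 99 reads) and *OMA1* (99 to 171 reads) had the fewest reads of the members and the widest intervals in the fit used, and the part of depth in this was not tested.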
